A study of Mus musculus with 44 samples.

Results

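The regions described here were the contacts that the alpha-globin, beta-globin and Slc25a37 promoters made with other autosomes in murine erythroid cells. Members were all restriction fragments on chromosomes 1 to 19 other than the viewpoint's own chromosome and no longer than 100 kb, and they were chosen by position alone. They comprised 1164085 of the 1476745 fragments listed in the 3 fixation tables, with 470025 seen from alpha-globin, 450686 from beta-globin and 243374 from Slc25a37. Only 3 fragments at alpha-globin, 2 at beta-globin and 0 at Slc25a37 were left out for their length. The counts were summed over 18 autosomes and over 10 Mb bins, of which there were 245, 242 and 245 for the 3 viewpoints in that order.

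The cells were Ter-119+ erythroid cells isolated from spleen. The donors, female C57BL/6 mice, had all received phenylhydrazine, a compound that destroys red cells and so drives the spleen to make new ones. Aliquots were fixed with 0.5, 1, 2, 3, 4 or 5% formaldehyde or were left unfixed (0%), and each condition had 2 technical replicates, giving 12 fixed and 2 unfixed libraries. The paper states that the unfixed material was also prepared differently. It was Dounce homogenized in water, and the centrifugation after that step was left out. Fixation and this preparation therefore cannot be told apart in comparisons with the unfixed libraries. The labels name no separate animals for these libraries, so p-values do not measure variation between animals. In tests with a separate mean for each concentration they measure technical spread. In slopes, trends and comparisons of viewpoints the spread comes from, or includes, differences between concentrations. Every library was captured for all 3 viewpoints at once. The age of the mice is not given in the sources used here, and no expression was measured, so the cell type was not checked against marker genes.

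In Capture-C, cross-linked chromatin is cut with DpnII, religated and enriched for joints with a chosen promoter, so that DNA held close in the nucleus is counted as joined. Joints between different chromosomes (trans contacts) can come from chromosomes that lie close together in the nucleus or from DNA that meets by diffusion after lysis. Each chromosome occupies its own territory, and mouse autosomes carry the centromere at one end, which is the start of the coordinate scale, and a telomere at the other. The alpha- and beta-globin genes encode the chains of haemoglobin, and Slc25a37 encodes the mitochondrial iron importer mitoferrin. Positions are those of the deposited tables, for which the submitters' processing notes name mm9.

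The 3 viewpoints lie at different distances from the centromeric end of their chromosomes. On each viewpoint's own chromosome, the 100 kb window with the most contacts was chr11:32100001-32200000 for alpha-globin, chr7:110900001-111000000 for beta-globin and chr14:69900001-70000000 for Slc25a37. These windows lie 24.5%, 72.2% and 54.8% of the way along the covered length of chromosomes 11, 7 and 14.

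Trans contacts numbered 683768 from alpha-globin, 655011 from beta-globin and 266471 from Slc25a37 over the 14 libraries. A library held 101066 and 114999 of them in the unfixed state and 17315 to 83264 in the fixed state at alpha-globin, and Slc25a37 was the shallowest viewpoint, with 5206 to 32935 in the fixed libraries. They made up 89.2% and 89.3% of all contacts of alpha-globin in the unfixed libraries and 24.4% to 70.4% in the fixed ones. No fragment held over 1% of the trans contacts of any library. The median length of the contacted fragments was higher in fixed libraries, at 248 to 357 bp against 229 and 237 bp for alpha-globin and at 291 to 420 bp against 214 and 222 bp for Slc25a37, whereas for beta-globin it was 246 to 335 bp against 246 and 247 bp. Within the fixed libraries the length differed between those of 0.5 to 2% and those of 3 to 5% formaldehyde. It was 272 to 357 bp and 248 to 261 bp for alpha-globin in that order. For beta-globin it was 280 to 335 bp and 246 to 259 bp, and for Slc25a37 291 to 420 bp and 298.5 to 312 bp. Trans contacts per library at alpha-globin were 37975 to 83264 and 17315 to 22642 in the same order. The part of fragment length in the results was not tested. Libraries of 0 to 2% and of 3 to 5% formaldehyde carry labels of different form and are given apart where this changed a call.

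Without fixation, trans contacts followed the length of the autosomes, and they did so alike from all 3 viewpoints. The contact density of an autosome, which is its share of trans contacts divided by its share of the covered length, is 1 when contacts fall evenly. At alpha-globin it ranged in the unfixed libraries from 0.915 and 0.933 on chromosome 14 to 1.07 and 1.11 on chromosome 19. At beta-globin it ranged from 0.916 and 0.923 on chromosome 14 to 1.13 and 1.15 on chromosome 11. At Slc25a37 the lowest values were 0.928 and 0.935 on chromosome 3 and the highest 1.11 and 1.16 on chromosome 11. The SD of log2 density over the 18 autosomes was 0.06 in both unfixed libraries at alpha-globin, 0.07 and 0.08 at beta-globin, and 0.06 and 0.08 at Slc25a37. Across 213 bins seen from all viewpoints, the summed shares of the unfixed libraries had a Pearson r of 0.961 between alpha-globin and beta-globin, 0.951 between alpha-globin and Slc25a37 and 0.950 between beta-globin and Slc25a37. These are correlations across bins, which share the libraries, the bins' lengths and their numbers of restriction sites.

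In the fixed libraries the trans contacts of alpha-globin lay less on the large autosomes and more on chromosomes 19 and 17. For chromosome 19, the smallest autosome, the density of 1.07 and 1.11 in the unfixed libraries compared with a lowest, median and highest value of 1.25, 1.89 and 2.27 in the 12 fixed libraries. All fixed libraries lay above both unfixed ones, and the log2 change was 0.73 ± 0.08 (SE; edgeR quasi-likelihood test, adjusted p = 9.83e-06). For chromosome 17, the unfixed densities were 1.03 and 1.06 and the fixed ones 1.15, 1.50 and 1.75 (lowest, median and highest). These groups did not overlap either, with a log2 change of 0.48 ± 0.05. For chromosome 1, the largest autosome, the unfixed densities were 0.977 and 0.982 and the fixed ones 0.639, 0.702 and 0.961. Every fixed library lay below both unfixed ones, and the log2 change was -0.41 ± 0.06 (edgeR, adjusted p = 5.38e-05).

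In all, 12 of 18 autosomes passed the adjusted p threshold of 0.05 at alpha-globin (66.7%). Chromosomes 9, 13, 16, 17, 18 and 19 rose (33.3%), and chromosomes 1 to 6 fell (33.3%). The other falls ran from -0.30 on chromosome 3 through -0.26 on chromosome 2 to -0.07 on chromosome 6, and the other rises lay between 0.11 and 0.17. The fixed and unfixed densities did not overlap on 7 autosomes (38.9%), which were chromosomes 1 to 5, 17 and 19. The SD of log2 density over autosomes was 0.11 to 0.41 in the fixed libraries with a median of 0.35, against 0.06 in both unfixed libraries.

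Beta-globin changed less at the level of whole autosomes and in other places. Chromosome 11, which carries alpha-globin, had beta-globin densities of 1.13 and 1.15 in the unfixed libraries and of 1.14, 1.28 and 1.40 (lowest, median and highest) in the fixed ones. The groups overlapped in the least fixed libraries, and the log2 change was 0.16 ± 0.03 (edgeR, adjusted p = 2.43e-07). Chromosome 18 went the other way, from 0.977 and 0.997 to 0.723, 0.854 and 0.994, with a log2 change of -0.22 ± 0.03. Altogether 10 of 18 autosomes were called (55.6%), with chromosomes 4, 5 and 11 higher (16.7%) and chromosomes 13 to 19 lower (38.9%). Chromosome 19, the autosome that gained most at alpha-globin, was among those that fell, with a log2 change of -0.13 ± 0.04 (edgeR, adjusted p = 0.00749). The groups did not overlap on 2 autosomes (11.1%), chromosomes 5 and 14.

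At Slc25a37 the gains fell on chromosomes 11, 19 and 17. The density of chromosome 11 was 1.11 and 1.16 in the unfixed libraries and 1.22, 1.46 and 1.55 in the fixed ones, with no overlap and a log2 change of 0.31 ± 0.03 (edgeR, adjusted p = 6.84e-15). Chromosome 19 had 1.04 and 1.07 unfixed and 1.12, 1.31 and 1.59 fixed, again without overlap, and a log2 change of 0.32 ± 0.05. Chromosome 1 fell from 0.950 and 0.985 to 0.769, 0.833 and 0.939, with a log2 change of -0.19 ± 0.02. Together 7 of 18 autosomes were called (38.9%), 3 higher (16.7%) and 4 lower (22.2%), and chromosomes 3, 8 and 18 were the other 3 that fell. In the libraries of 0 to 2% alone 3 were called, and DESeq2 called 4. The groups did not overlap on 3 autosomes (16.7%), chromosomes 1, 11 and 19.

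The duplicates of a condition are technical, and when they were summed to 6 fixed sums against 1 unfixed sum, edgeR called 0 autosomes at every viewpoint, with 3, 0 and 4 at an unadjusted p under 0.05 in the order above. The spread in that fit takes in the differences between concentrations. Without the first unfixed library 7 autosomes were called at alpha-globin and 3 at beta-globin, the remaining one being taken to vary like the fixed libraries.

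**Figure D1:**
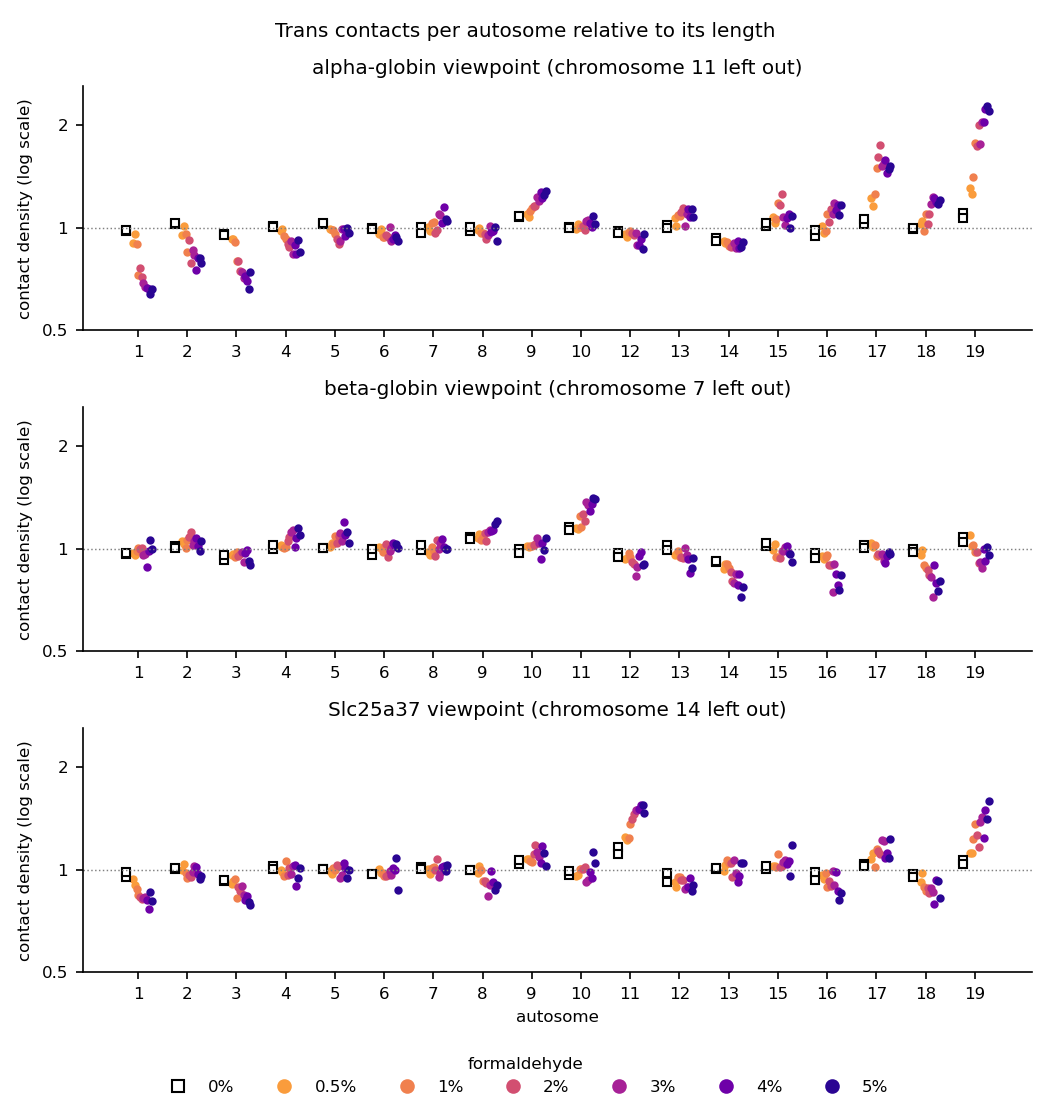
Contact density (share of trans contacts over share of length, log axis) of each autosome in each library, with the viewpoint's own chromosome left out; open squares are the 2 unfixed libraries and filled points the 12 fixed ones, coloured by formaldehyde. At alpha-globin chromosome 19 rises to 2.27 and chromosome 1 falls to 0.639, whereas unfixed libraries stay between 0.915 and 1.16 at every viewpoint.

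Within autosomes the changes were wider than the autosome totals show. Of the 10 Mb bins tested, 152 of 244 were called at alpha-globin (62.3%), 147 of 242 at beta-globin (60.7%) and 147 of 242 at Slc25a37 (60.7%). At alpha-globin 56 rose (23%) and 96 fell (39.3%), at beta-globin 57 rose (23.6%) and 90 fell (37.2%), and at Slc25a37 53 rose (21.9%) and 94 fell (38.8%). These are changes of shares, so that large gains in a few bins lower the others. The median log2 change over all bins was -0.13 at alpha-globin, and with DESeq2's size factors it was -0.02. That scaling gave 66 bins up and 54 down at alpha-globin, 62 up and 41 down at beta-globin and 52 up and 53 down at Slc25a37. With TMM factors the split was 72 up and 78 down, 64 up and 64 down, and 66 up and 79 down. With duplicates summed and the 6 fixed sums taken as 1 group against 1 unfixed sum, 0, 3 and 4 bins were called, and 69, 49 and 60 had an unadjusted p under 0.05. The spread in that fit takes in the differences between concentrations. Leaving out either unfixed library gave 98 and 97 calls at alpha-globin and 86 and 86 at beta-globin, with the lone library taken to vary like the fixed ones.

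The bin with the largest rise at alpha-globin was the centromeric end of chromosome 19, chr19:1-10000000. It held 0.378% and 0.328% of trans contacts in the unfixed libraries (435 and 331 contacts). In the fixed libraries it held 0.753% and 0.596% at 0.5% formaldehyde, 0.870% and 1.42% at 1%, and 1.46% and 1.57% at 2%. It then held 1.52% and 1.72% at 3%, 1.62% and 1.88% at 4%, and 1.90% and 1.94% at 5%. Every fixed library was above both unfixed ones, and the shares of both duplicates were higher at 5% than at any lower concentration. The log2 change was 1.95 ± 0.18 (edgeR, adjusted p = 1.21e-10). Slc25a37 shared this bin, with 0.354% and 0.346% unfixed and a fixed median of 0.838% (log2 change 1.17 ± 0.11, edgeR adjusted p = 1.82e-21). Beta-globin held 0.412% and 0.386% unfixed and a fixed median of 0.428%, a log2 change of 0.14 that was not called (edgeR, adjusted p = 0.208).

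The bin with the next smallest adjusted p among those that rose was chr17:20000001-30000000. It held 0.493% and 0.571% in the unfixed libraries, and 0.719%, 1.54% and 2.06% (lowest, median and highest) in the fixed ones. The highest values came from the 2 libraries of 2% formaldehyde, with 1.85% and 2.06%, and those of 5% held 1.45% and 1.64%. Its log2 change was 1.40 ± 0.18 at alpha-globin and 0.90 ± 0.11 at Slc25a37, and 0.19 at beta-globin, where it was not called (edgeR, adjusted p = 0.059). The other 2 named bins that rose at alpha-globin were chr13:20000001-30000000 and chr7:20000001-30000000, with log2 changes of 0.86 ± 0.11 and 1.01 ± 0.13. Neither was called higher at beta-globin, which fell in the first (log2 change -0.20, edgeR adjusted p = 0.042) and lies on the chromosome of the second.

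The named bins that fell at alpha-globin lay towards the far ends of large autosomes. The share of chr2:170000001-180000000 was 0.397% and 0.378% unfixed and 0.0796%, 0.148% and 0.329% fixed (lowest, median and highest), a log2 change of -1.37 ± 0.18 (edgeR, adjusted p = 8.11e-08). The lowest fixed shares rest on 15 and 17 contacts, in the libraries of 5% formaldehyde. The others were chr4:140000001-150000000 at -1.05 ± 0.12, chr2:140000001-150000000 at -1.23 ± 0.15 and chr2:160000001-170000000 at -1.02 ± 0.13. In the same order, beta-globin gave log2 changes of 0.11, 0.27, -0.55 and 0.23 in these 4 bins, and Slc25a37 gave -0.46, -0.30, -1.13 and -0.11. Of the bins named for this comparison, chr2:140000001-150000000 and chr1:100000001-110000000 fell at all 3 viewpoints. The first went from 0.418% and 0.464% to a fixed median of 0.170% at alpha-globin, from 0.506% and 0.493% to 0.352% at beta-globin, and from 0.424% and 0.448% to 0.187% at Slc25a37. At beta-globin 1 fragment of this bin, chr2:144998571-144998689, held 50 and 70 contacts in the unfixed libraries and 0 to 4 in those of 3 to 5%. Without fragments of 10 or more contacts, left out after the data were seen, the log2 change of the bin at beta-globin was -0.49 (edgeR, adjusted p = 4.04e-05).

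At beta-globin the named bins that rose lay towards the ends of chromosomes 11 and 4. The last bin of chromosome 11, chr11:120000001-121843145, is under 2 Mb long, and its share was 0.102% and 0.093% unfixed with a fixed median of 0.272%. It had the largest log2 change at beta-globin, 1.33 ± 0.18 (edgeR, adjusted p = 5.24e-11), and also the largest at Slc25a37, 1.66 ± 0.19 (edgeR, adjusted p = 4.74e-16). The others were chr4:130000001-140000000 at 0.72 ± 0.11, chr11:100000001-110000000 at 0.70 ± 0.11 and chr4:150000001-155630053 at 0.62 ± 0.10. The named bins that fell at beta-globin were, beside chr2:140000001-150000000, all second from the centromeric end, with log2 changes of -0.68 ± 0.10 on chromosome 8, -0.86 ± 0.14 on chromosome 15 and -0.76 ± 0.13 on chromosome 12 (10000001 to 20000000 on each). At Slc25a37, chr3:90000001-100000000 completed the named rises with 0.75 ± 0.11. The named falls there were chr2:140000001-150000000, chr1:100000001-110000000 at -1.14 ± 0.15, chr9:10000001-20000000 at -0.97 ± 0.14 and chr5:10000001-20000000 at -1.09 ± 0.16.

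**Figure D2:**
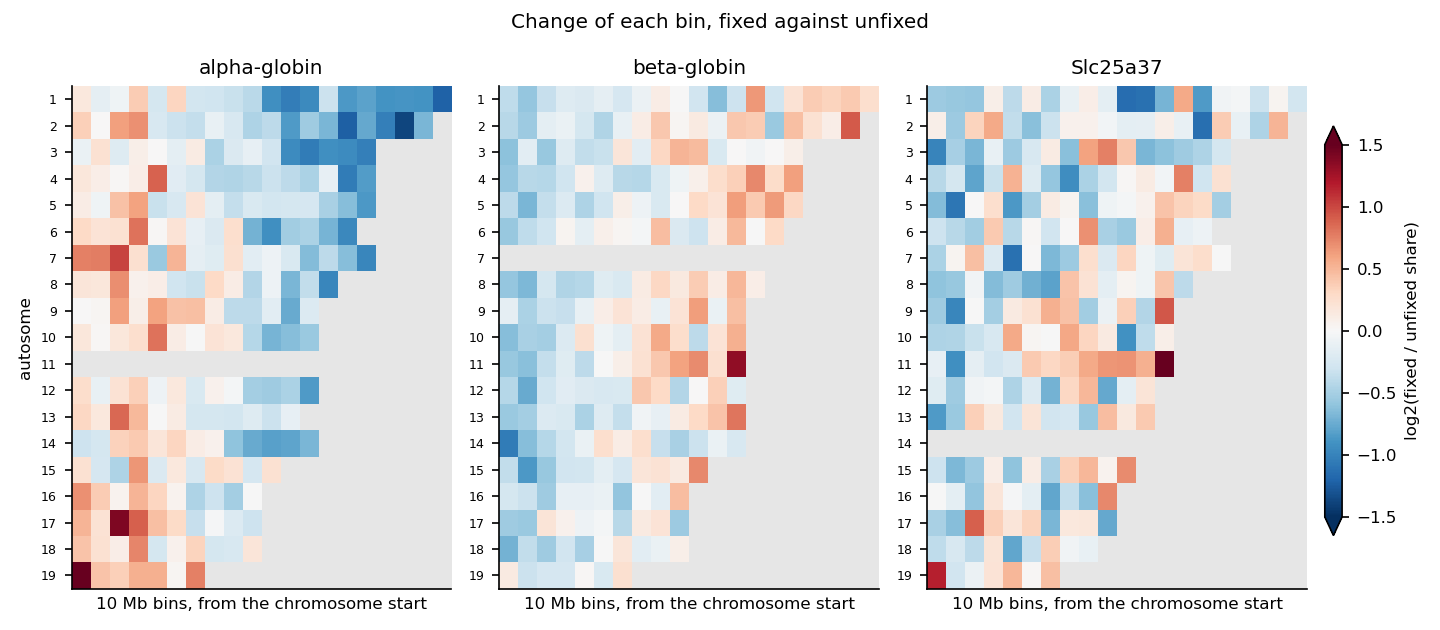
Log2 change of the share of trans contacts in each 10 Mb bin (colour; red higher and blue lower in the 12 fixed than in the 2 unfixed libraries), with autosomes in rows and bins in order from the centromeric start; grey marks the viewpoint's own chromosome, untested bins and the space past a chromosome's end. At alpha-globin the left side is mostly red and the right side blue, and at beta-globin the reverse, with log2 changes from -1.37 to 1.95 and from -1.05 to 1.33.

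The direction of change depended on where a bin lay between the centromere and the telomere, and in opposite ways for the alpha- and beta-globin viewpoints. Of the 18 bins at the centromeric end, 7 rose and 0 fell at alpha-globin, with a median log2 change of 0.25. At beta-globin 0 of these bins rose and 15 fell, with a median of -0.54, and at Slc25a37 1 rose and 11 fell, with a median of -0.44. Of the 18 bins before the last, 0 rose and 17 fell at alpha-globin (median -0.64), 9 rose and 1 fell at beta-globin (median 0.17), and 4 rose and 6 fell at Slc25a37 (median -0.02). In the last, often partial, bin of each autosome, 1 rose and 11 fell at alpha-globin, 9 rose and 1 fell at beta-globin, and 6 rose and 3 fell at Slc25a37. Over all bins the medians were -0.13, -0.12 and -0.11.

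The same was seen when each autosome was divided into 10 segments of equal length and the segments were added up over the 18 autosomes. In the unfixed libraries every segment held between 9.26% and 11.3% of the trans contacts. At alpha-globin the first segment held 9.26% and 9.32% unfixed and 10.4%, 12.0% and 12.5% fixed (lowest, median and highest), and the last segment held 10.9% and 11.1% unfixed and 6.00%, 6.82% and 9.50% fixed. All 12 fixed libraries lay above both unfixed ones in segments 1 to 4 and below both in segments 7 to 10. The largest rise was in the second segment, where 9.76% and 9.93% compared with 11.1%, 13.5% and 15.8%. The alpha-globin promoters themselves lie in the third segment of chromosome 11.

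At beta-globin the first segment held 9.47% and 9.54% unfixed and 5.91%, 6.51% and 9.06% fixed, and the last held 10.8% in both unfixed libraries and 11.6%, 13.7% and 14.9% in the fixed ones. All fixed libraries lay below both unfixed ones in segments 1 to 4 and above both in segments 7 to 10, the mirror of alpha-globin. The beta-globin promoters lie in the eighth segment of chromosome 7. Slc25a37, in the sixth segment of chromosome 14, moved less. Its first segment went from 9.62% and 9.73% to 6.62%, 7.72% and 8.86%, and its last from 11.0% and 11.2% to 11.1%, 12.4% and 13.3%, where the groups overlapped. The fixed libraries lay apart from the unfixed ones in segments 1 and 3 (below) and 8 and 9 (above).

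**Figure D3:**
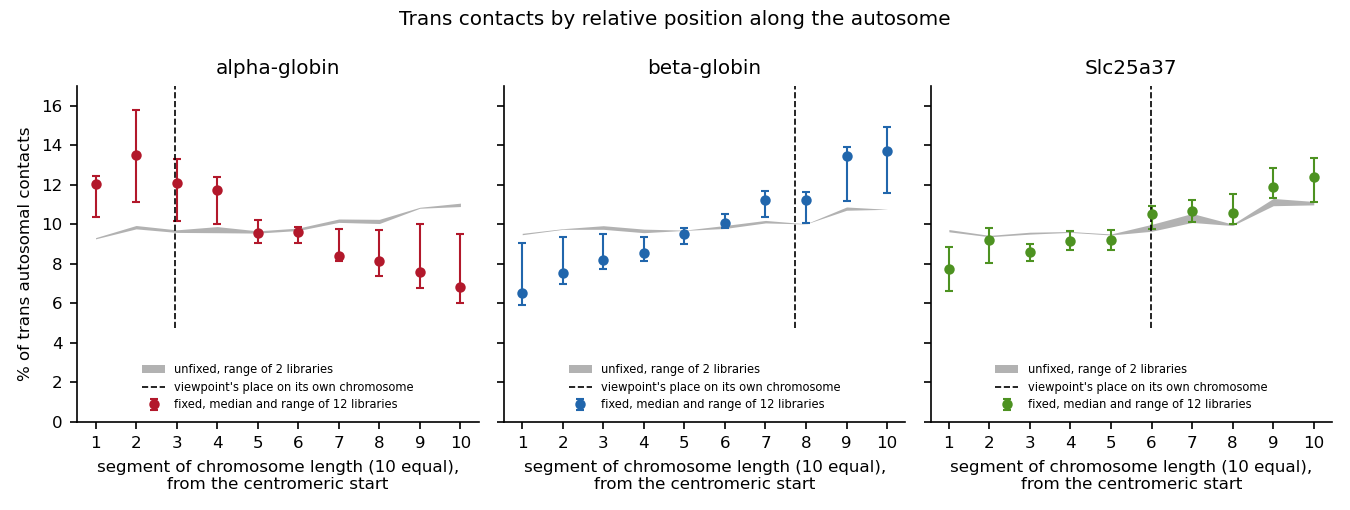
Percentage of trans autosomal contacts in each of 10 equal segments of chromosome length, summed over 18 autosomes; the grey band spans the 2 unfixed libraries, points and bars are the median and range of the 12 fixed libraries, and the dashed line marks where the viewpoint lies on its own chromosome. Fixed medians fall from 13.5% in the second segment to 6.82% in the last at alpha-globin and rise from 6.51% to 13.7% at beta-globin.

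The shift was present on nearly every autosome taken alone. The contacts in the last 20 Mb were divided by those in the first 20 Mb of the coordinate scale, part of which holds no mapped fragments. This ratio was lower in the summed fixed than in the summed unfixed libraries on 18 of 18 autosomes at alpha-globin, with log2 differences from -1.14 to -0.19 and a median of -0.57. At beta-globin it was higher on 18 of 18, by 0.01 to 0.91 with a median of 0.60. At Slc25a37 it was higher on 17 of 18, with a median of 0.37, and chromosome 19 was the exception, at -0.16. The same autosome gave the smallest difference at beta-globin.

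The ratio moved with each step of formaldehyde up to 2%, stepped back at 3% and did not pass its 2% value at 3 to 5%. The libraries of 3 to 5% also carry the other form of label, so concentration and label form cannot be told apart at this step. Taken over all autosomes, it had a mean log2 value at alpha-globin of 0.43 at 0% (0.42 and 0.44 in the duplicates), 0.11 at 0.5%, -0.18 at 1% and -0.59 at 2%. At 3, 4 and 5% it was -0.41, -0.46 and -0.50. At beta-globin the means were 0.40, 0.64, 0.95 and 1.38 from 0 to 2% and 1.21, 1.28 and 1.28 from 3 to 5%. At Slc25a37 they were 0.42, 0.63, 0.90 and 1.14, and then 0.87, 1.01 and 0.84. The 1% duplicates lay far apart, at 0.08 and -0.44 for alpha-globin and at 0.74 and 1.15 for beta-globin, and the duplicate with the larger shift also had the lower trans percentage, with 39.8% against 57.9% at alpha-globin. The slope per percent of formaldehyde was -0.16 at alpha-globin and 0.16 at beta-globin (exact two-sided permutation test over 7 concentration means, adjusted p = 0.0355 for both over 9 slopes), and 0.07 at Slc25a37, which did not pass (adjusted p = 0.205). Without replicate 1 the slopes at alpha- and beta-globin did not pass (exact permutation test, adjusted p = 0.108 and 0.0959). Over the fixed concentrations alone the slopes were -0.11 and 0.12 and did not pass (exact permutation test, adjusted p = 0.127 for both).

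The preference for small autosomes followed another course. Contacts per Mb on chromosomes 16 to 19 over those on chromosomes 1 to 4 had a mean log2 ratio at alpha-globin of 0.04, 0.21, 0.49 and 0.77 at 0, 0.5, 1 and 2%, and of 0.84, 0.94 and 0.93 at 3, 4 and 5%. At Slc25a37 the means rose from 0.02 at 0% to 0.25 at 5%, and at beta-globin they fell from 0.02 to -0.22, with -0.25 at 3%. The slopes per percent were 0.18 at alpha-globin, 0.04 at Slc25a37 (exact permutation test, adjusted p = 0.0182 for both) and -0.05 at beta-globin (adjusted p = 0.0226). The slope at Slc25a37 did not pass without replicate 2 (exact permutation test, adjusted p = 0.0714), and that at beta-globin did not pass without replicate 1 (adjusted p = 0.0542). Over the fixed concentrations alone the slopes at alpha-globin and Slc25a37 passed (exact permutation test, adjusted p = 0.0281 for both). That at beta-globin did not (adjusted p = 0.0729). The trans percentage itself had slopes of -11.5, -10.6 and -11.8 percentage points per percent of formaldehyde at alpha-globin, beta-globin and Slc25a37 (adjusted p = 0.0182 for each). With 4 means, as for the libraries of 0 to 2% alone, the slopes kept these directions but none passed after adjustment. With 4 means there are only 24 orders, so the unadjusted p of an exact permutation test cannot be under 0.0417. Not passing after adjustment therefore says little.

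**Figure D4:**
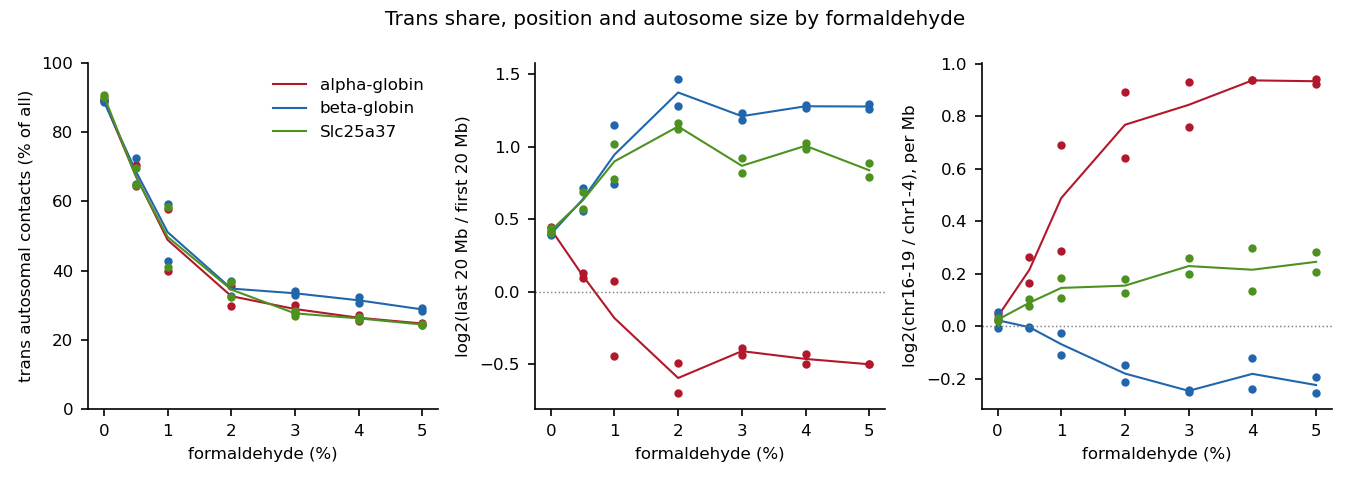
Trans autosomal contacts as a percentage of all contacts (left), log2 ratio of contacts in the last over the first 20 Mb (middle) and log2 ratio of contacts per Mb on chromosomes 16 to 19 over 1 to 4 (right) against formaldehyde; points are the 2 technical replicates of a concentration and lines join their means. The middle ratio starts near 0.4 at all viewpoints and reaches -0.59 at alpha-globin and 1.38 at beta-globin by 2%.

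Single concentrations against the unfixed pair showed the same course. At 0.5% formaldehyde 1 of 244 bins was called at alpha-globin (0.41%), and edgeR called 0 of 242 at beta-globin and 0 of 242 at Slc25a37, with 13 and 30 at an unadjusted p under 0.05. At 1% the calls were 57 (23.4%), 39 (16.1%) and 60 (24.8%), and at 2% they were 146 (59.8%), 141 (58.3%) and 140 (57.9%). At 5%, with fewer trans contacts to count, they were 134 (54.9%), 86 (35.5%) and 77 (31.8%). The spread of the changes, as the SD of log2 over bins, was 0.19, 0.37, 0.61 and 0.68 at 0.5, 1, 2 and 5% at alpha-globin, so that it rose little after 2%.

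Among the 12 fixed libraries alone, 93 of 243 bins changed with formaldehyde at alpha-globin (38.3%), 55 of 240 at beta-globin (22.9%) and 61 of 241 at Slc25a37 (25.3%). In the same order 33 rose (13.6%) and 60 fell (24.7%), 21 rose (8.75%) and 34 fell (14.2%), and 18 rose (7.47%) and 43 fell (17.8%). The named bins that rose at alpha-globin were chr9:60000001-70000000, chr19:40000001-50000000, chr19:30000001-40000000 and chr16:30000001-40000000, at 0.14 to 0.16 per percent. Those that fell were the neighbours chr3:130000001-140000000 and chr3:140000001-150000000, chr1:110000001-120000000 and chr2:140000001-150000000, at -0.35 to -0.33 per percent. At Slc25a37 chr19:1-10000000 led the rises with 0.25 ± 0.04 per percent (edgeR, adjusted p = 1.39e-06). The largest named fall there was on chr1:110000001-120000000, at -0.40 ± 0.08. At beta-globin chr5:120000001-130000000 rose by 0.18 ± 0.04 per percent and chr2:140000001-150000000 fell by 0.20 on the log2 scale per percent, or by 0.17 without fragments of 10 or more contacts (edgeR, adjusted p = 0.00185). With a block for libraries of 0.5 to 2% and of 3 to 5%, 17, 7 and 17 bins remained called, and leaving out 1 library of 0.5% gave 53 and 55 calls at alpha-globin, 14 and 17 at beta-globin and 18 and 20 at Slc25a37.

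The viewpoints were compared with each other within libraries, over the 16 autosomes that all 3 see in trans. In the unfixed libraries edgeR called 0 of 214 bins for each of the 3 pairs, as did DESeq2, and 0 had an unadjusted p under 0.05 in this fit, whose spread takes in the differences between fixed libraries. With the unfixed libraries fitted alone, a fit added after the data were seen, edgeR called 0 of 216, and 16, 11 and 11 bins had an unadjusted p under 0.05. The SD over 213 bins of the log2 ratio of the summed unfixed shares was 0.09 between alpha- and beta-globin and 0.10 for the other two pairs. In the fixed libraries 174 of 214 bins differed between alpha- and beta-globin (81.3%), with 82 higher (38.3%) and 92 lower (43%) at alpha-globin. Between alpha-globin and Slc25a37 160 differed (74.8%), 88 higher (41.1%) and 72 lower (33.6%), and between beta-globin and Slc25a37 80 did (37.4%), 44 higher (20.6%) and 36 lower (16.8%). In the libraries of 0 to 2% alone the last of these counts was 15.

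Whether the change from unfixed to fixed libraries differed between viewpoints was tested by the difference of the 2 changes. Between alpha- and beta-globin 117 of 214 bins passed (54.7%), 56 higher (26.2%) and 61 lower (28.5%) at alpha-globin. Between alpha-globin and Slc25a37 52 passed (24.3%), 22 higher (10.3%) and 30 lower (14%), and between beta-globin and Slc25a37 0 passed, with 19 bins at an unadjusted p under 0.05 and 0 calls by DESeq2. These counts depended on both unfixed libraries, since without one or the other the first was 34 and 38 and the second 0 in both cases, with the lone library taken to vary like the rest. In the libraries of 0 to 2% alone the 3 counts were 84, 0 and 0.

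The bin that differed most between alpha- and beta-globin was chr19:1-10000000. From unfixed to fixed libraries, alpha-globin gained 1.75 over beta-globin there on the log2 scale (edgeR, adjusted p = 6.78e-06). It was followed on the same side by chr17:20000001-30000000 (1.19), chr13:20000001-30000000 (1.05) and chr18:30000001-40000000 (0.96). On the other side were chr4:150000001-155630053 (-1.33), chr4:140000001-150000000 (-1.22), chr6:140000001-150000000 (-1.18) and chr2:150000001-160000000 (-1.13). In the first of these, the end of chromosome 4, alpha-globin went from 0.358% and 0.304% in the unfixed libraries to 0.121%, 0.180% and 0.270% (lowest, median and highest) in the fixed ones. Beta-globin rose there from 0.343% and 0.301% to 0.352%, 0.520% and 0.622%. Against Slc25a37, alpha-globin was lower beyond the unfixed state in chr2:150000001-160000000 (-1.08), chr6:120000001-130000000 (-0.98), chr3:80000001-90000000 (-0.80) and chr8:120000001-130000000 (-0.78), and higher in chr13:1-10000000 (0.96), chr9:10000001-20000000 (0.84), chr5:10000001-20000000 (0.85) and chr6:20000001-30000000 (0.69). For beta-globin against Slc25a37 the 2 bins with the smallest p were chr19:1-10000000 (-0.97) and chr2:30000001-40000000 (-0.63), which were not called (edgeR, adjusted p = 0.172 for both).

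By whole autosomes, edgeR called 14 of 16 between alpha- and beta-globin in the fixed libraries (87.5%). It called 12 between alpha-globin and Slc25a37 (75%) and 7 between beta-globin and Slc25a37 (43.8%). In the libraries of 0 to 2% alone these counts were 12, 9 and 4. Beyond the unfixed state, 12 of 16 differed between alpha- and beta-globin (75%). Chromosomes 13, 15, 16, 17, 18 and 19 were higher at alpha-globin and chromosomes 1 to 6 lower. On chromosome 19 the log2 ratio of the alpha-globin to the beta-globin share was 0.03 and 0.01 in the unfixed libraries and 0.25, 0.98 and 1.26 (lowest, median and highest) in the fixed ones, an increase of 0.83 ± 0.19 (edgeR, adjusted p = 0.000723). On chromosome 1 it was 0.01 and -0.00 in the unfixed and -0.74, -0.48 and -0.01 in the fixed libraries, a decrease of 0.41 ± 0.11. For alpha-globin against Slc25a37 and beta-globin against Slc25a37 edgeR and DESeq2 called 0 of 16 autosomes beyond the unfixed state. EdgeR gave 5 and 2 with an unadjusted p under 0.05. Without the first library of 0.5%, the second of 0.5% or the first of 1%, it called 1, 2 and 1 for alpha-globin against Slc25a37. Without one or the other unfixed library 2 and 5 autosomes were called between alpha- and beta-globin, and in the libraries of 0 to 2% alone there were 10.

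**Figure D5:**
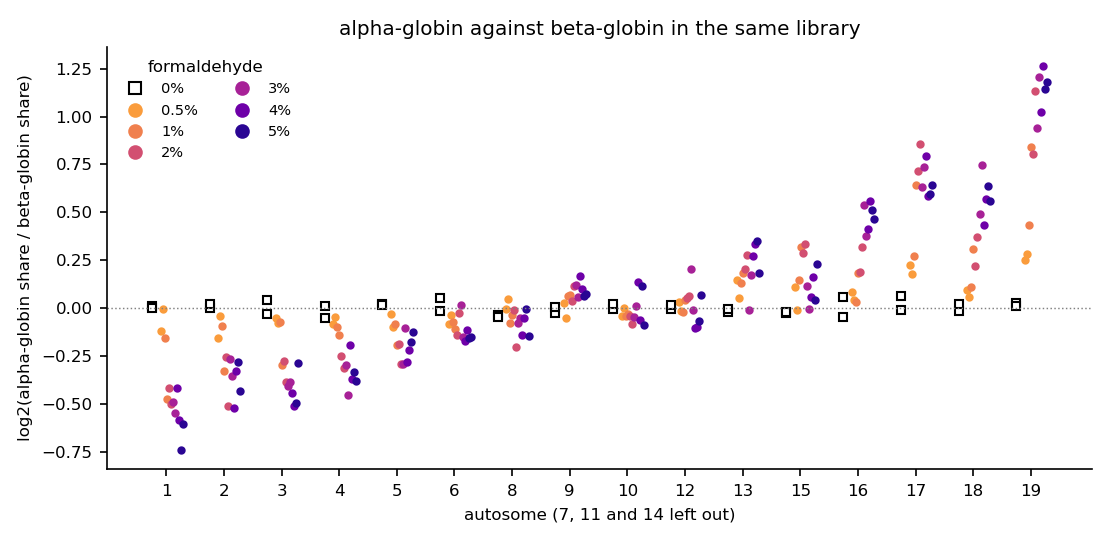
Log2 ratio of the alpha-globin to the beta-globin share of trans contacts on each autosome seen from both and from Slc25a37, in each library; open squares are the 2 unfixed libraries and filled points the 12 fixed ones, coloured by formaldehyde. Unfixed ratios lie between -0.05 and 0.06, and fixed ratios reach 1.26 on chromosome 19 and -0.74 on chromosome 1.

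The likeness of the profiles followed the same order. At 2% formaldehyde the r of bin shares over 213 bins was 0.142 between alpha- and beta-globin, 0.512 between alpha-globin and Slc25a37 and 0.854 between beta-globin and Slc25a37. At 5% these were 0.266, 0.674 and 0.779. Depth differed too, with 6501 and 5983 trans contacts of Slc25a37 at 5%, 22627 and 13352 at 2%, and 51913 and 43103 unfixed. The part of depth in these r values was not tested. To avoid shared libraries, the log2 change from unfixed to fixed was also taken from the first replicates for one viewpoint and from the second for the other. It had an r of -0.23 and -0.26 between alpha- and beta-globin, 0.34 and 0.29 between alpha-globin and Slc25a37, and 0.61 and 0.69 between beta-globin and Slc25a37. Between the 2 replicate sets of one viewpoint it was 0.94 at alpha-globin, 0.83 at beta-globin and 0.84 at Slc25a37. These values describe bins, which are not independent replicates.

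The bins that hold the other promoters were not among the gains. The bin of beta-globin, chr7:110000001-120000000, held 0.487% and 0.439% of the trans contacts of alpha-globin in the unfixed libraries and a median of 0.402% in the fixed ones (log2 change -0.23 ± 0.10, edgeR adjusted p = 0.0473). From Slc25a37 it held 0.484% and 0.490% unfixed and a fixed median of 0.468%, a log2 change of -0.06 that was not called. The bin of alpha-globin, chr11:30000001-40000000, held 0.452% and 0.442% of the trans contacts of beta-globin unfixed and a median of 0.392% fixed (log2 change -0.19 ± 0.10, edgeR adjusted p = 0.0836), although chromosome 11 as a whole rose. From Slc25a37 the same bin fell by 0.28 on the log2 scale (edgeR, adjusted p = 0.0165). The bin of Slc25a37, chr14:60000001-70000000, gave log2 changes of 0.11 from both globin viewpoints, neither of them called. Bins of this width hold many genes, and contacts of single promoters with each other were not resolved here.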

How the data were processed

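Trans contacts were analysed in the 14 fixation libraries of Ter-119+ erythroid cells. The deposited values are counts, without normalization, of unique interactions per DpnII restriction fragment, which the authors made with their NG Capture-C pipeline. They had removed read pairs with identical ends as PCR duplicates and pooled the 2 promoters of each globin pair. The submitters' processing notes name Trim Galore, Bowtie and mm9, without versions here. How reads that match several places were treated is not given in the sources used here, and it could change counts in repeated sequence. No genome or annotation of this build was used, so no genes or sequences were joined to the bins.

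Each library has its own column in each of the 3 tables, and 0 columns were left unmapped. Counts on the other autosomes were summed per autosome and per 10 Mb bin in Python 3.11.15 with pandas and NumPy. In R 4.3.3, edgeR 4.0.16 tested the shares by quasi-likelihood. The trans total was the library size, bins needed a mean count of at least 10, and the threshold was 0.05 after Benjamini-Hochberg adjustment. Each of the 7 concentrations had its own mean, and the average of the 6 fixed ones was set against 0%. Viewpoints were compared in one fit over 42 columns, with the library as a block. Slopes on formaldehyde used exact two-sided permutation tests over 7 concentration means (5040 orders), adjusted over 9 slopes. DESeq2 1.42.0, TMM factors, other bin widths, distinct fragments, libraries left out, and summed duplicates were alternatives, as were blocks for the label form and for the replicate number. The test of fixed against unfixed bins was also run on simulated counts. Their spread was set to the same value for all bins and was not fitted to the duplicates, which can vary more.

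Autosomes past the threshold were named. Each test over bins named the 4 called rises and 4 called falls of lowest adjusted p, or the 2 bins of lowest p where none passed. Bins holding another viewpoint were named in any case. Members, lists and rules were chosen with earlier results of these data known. Depth per library was 5206 to 114999 trans contacts, and p-values from technical replicates leave out the variation between animals. The tables of the low-input libraries were not used here.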

Additional observations from a re-analysis of the deposited data

Results flagged for a closer look

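The differences below were brought out because the change with formaldehyde, or from unfixed to fixed libraries, differed between viewpoints by a test of the difference itself. The slope of the log2 ratio of the last to the first 20 Mb on formaldehyde differed by -0.32 per percent between alpha- and beta-globin (exact permutation test over 7 means, adjusted p = 0.0418 over 9 differences) and by 0.0915 between beta-globin and Slc25a37 (adjusted p = 0.0183). The ratio of small to large autosomes differed in slope by 0.23 between alpha- and beta-globin, by 0.14 between alpha-globin and Slc25a37 and by -0.0905 between beta-globin and Slc25a37 (adjusted p = 0.0183 for each). The slope of the trans percentage differed by -0.916 percentage points per percent between alpha- and beta-globin (adjusted p = 0.0211) and by 1.21 between beta-globin and Slc25a37 (adjusted p = 0.0418). All slope differences were taken over the 7 means including the unfixed one, and no alternative run was made for them.

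Between alpha- and beta-globin, the log2 change from unfixed to fixed differed by -0.41 on chromosome 1, -0.30 on chromosome 2, -0.30 on chromosome 3, -0.22 on chromosome 4, -0.19 on chromosome 5 and -0.12 on chromosome 6. It differed the other way by 0.20 on chromosome 13, 0.18 on chromosome 15, 0.29 on chromosome 16, 0.53 on chromosome 17, 0.36 on chromosome 18 and 0.83 on chromosome 19. The bins that differed numbered 117 between alpha- and beta-globin and 52 between alpha-globin and Slc25a37. All these comparisons share libraries and the 2 unfixed libraries, and groups of 2 were too small to look for outlying samples.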

How the results depend on the processing

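Values are given in the order alpha-globin, beta-globin, Slc25a37, and viewpoint pairs in the order alpha- against beta-globin, alpha-globin against Slc25a37, beta-globin against Slc25a37. No slope changed direction under any alternative run. Nor did any named region, at the same bin width, that had a call in the main or the alternative run. Changes of direction without a call in either run were not counted. The balance of rises and falls among called bins did change with the scaling, as given in the results. With duplicates summed and the fixed sums taken as 1 group, edgeR called 0, 3 and 4 bins and 0, 0 and 0 autosomes between fixed and unfixed. With duplicates summed, the trend among fixed libraries had 15 bins at beta-globin and 29 at Slc25a37. Bins of 5 Mb gave 267 calls of 475 at alpha-globin and 296 of 474 at Slc25a37, and bins of 20 Mb gave 84 of 126, 85 of 126 and 74 of 125. Between viewpoints, 20 Mb bins gave 100, 89 and 47 of 111 in the fixed libraries and 73 for alpha- against beta-globin beyond the unfixed state. Fewer or more bins were tested there. At Slc25a37 DESeq2 called 4 autosomes, and the libraries of 0 to 2% alone gave 3. Trends had 17, 7 and 17 calls with a block for the label form, 86 at beta-globin with distinct fragments and 34 at Slc25a37 with DESeq2. In the libraries of 0 to 2%, 15 bins differed between fixed beta-globin and Slc25a37, and 0 between alpha-globin and Slc25a37 beyond the unfixed state. The causes were not tested.

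Leaving out each library in turn gave 97 to 166, 86 to 156 and 106 to 158 bins and 7 to 14, 3 to 14 and 6 to 8 autosomes between fixed and unfixed. It gave 53 to 108, 14 to 70 and 18 to 75 trends, 169 to 173, 149 to 161 and 69 to 90 bins between fixed viewpoints, and 34 to 133, 0 to 79 and 0 to 2 beyond the unfixed state. Beside the libraries named in the results, the trend at beta-globin had 20 calls without the first library of 1% and 35 without the second of 4%, and at Slc25a37 40 without the first of 1%. Alpha-globin against Slc25a37 beyond the unfixed state had 79 without the second library of 0.5%, 34 without the second of 1% and 32 without the first of 2%. For beta-globin against Slc25a37 there was 1 without the first library of 0.5%, 2 without the second, and 1 without the first of 1%.

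Slopes from 4 means of 0 to 2% did not pass an exact permutation test after adjustment, where 24 orders keep the unadjusted p from going under 0.0417. The trans percentage gave -27.69, -26.52 and -27.15 (adjusted p = 0.0938 each), small over large autosomes 0.3715, -0.1052 and 0.0626 (adjusted p = 0.075, 0.075 and 0.125), and distal over proximal ends -0.5091, 0.4932 and 0.3617 (adjusted p = 0.075 each), the last against 0.07 over all 7 means. From 0.5 to 5%, small over large was -0.04469 at beta-globin and did not pass (exact permutation test, adjusted p = 0.0729). Distal over proximal was -0.1077 and 0.1171 at alpha- and beta-globin, and neither passed (adjusted p = 0.127 for both). From one replicate set or the other, the trans slopes were -11.67 to -11.35, -10.76 to -10.42 and -12.08 to -11.52. Those of small over large were 0.1723 and 0.1842 at alpha-globin, -0.05604 and -0.04568 at beta-globin, and 0.03107 and 0.04819 at Slc25a37. Those of distal over proximal were -0.1734 and -0.1466, 0.1578 and 0.1656, and 0.0642 and 0.0762. Without replicate 1 the distal slopes of both globin viewpoints and the small over large slope of beta-globin did not pass (exact permutation test, adjusted p = 0.108, 0.0959 and 0.0542), nor without replicate 2 did small over large at Slc25a37 (adjusted p = 0.0714).

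By the correlation of same-numbered deviations the replicate numbers showed no general pairing of the samples, which does not settle whether any were paired. Over 21 pairs of concentrations the correlation of same-numbered deviations had medians of 0.01, -0.01 and 0.00, from -0.37 to 0.44. With the replicate block, calls between fixed and unfixed numbered 148, 142 and 147 bins and 11, 10 and 7 autosomes. Trends numbered 90, 50 and 59, fixed viewpoint pairs 174, 160 and 80, and pairs beyond the unfixed state 114, 49 and 0. The regions named in the results were recomputed in 1242 settings for 54 autosome values, of which 77 lost and 32 gained their call, and in 2076 settings for 96 bin values, of which 80 lost and 6 gained it.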

Other observations

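Single fragments with many trans contacts were few. Over the 14 libraries 39 fragments at alpha-globin, 44 at beta-globin and 1 at Slc25a37 held 10 or more contacts, together 0.0889%, 0.172% and 0.00413% of the trans total. Of these, 4 at alpha-globin and 19 at beta-globin had no contact in any library of 0 to 2% formaldehyde and held 162 and 425 contacts in the libraries of 3 to 5%. The fragment with most contacts held 286, at beta-globin, of which 50 and 70 were in the unfixed libraries, and 73 was the most at alpha-globin.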
